A study of Mus musculus with 6 samples.

Results

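The genes described here are 10 secreted factors that brown fat is known to release or respond to, *Nrg4*, *Bmp8b*, *Bmp7*, *Bmp4*, *Il6*, *Igf1*, *Fgf1*, *Fgf10*, *Slit2* and *Metrnl*. They were chosen by name, and every probe of the array whose RefSeq annotation maps to one of them was taken, which gave 20 probes for the 10 genes, out of 56605 probes and 23462 named genes on the array. Brown adipose tissue (BAT) of 3 wild-type (WT) mice and 3 miR-22 KO mice was compared, with total RNA of 1 mouse on each single-dye Agilent mouse array. All 6 mice were male and 8 weeks old, and no treatment is given in the labels. The KO mice carried a constitutive deletion of miR-22, not one restricted to adipocytes, and the strain background is not given in the sources used here.

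Brown adipocytes burn fuel to make heat, and they also secrete proteins, often called batokines, that act on neighbouring cells, nerves, blood vessels and distant organs. The growth factors among them bind receptors on the cell surface. Neuregulins signal through ErbB receptors, bone morphogenetic proteins (BMPs) through paired serine/threonine kinase receptors and Smad proteins, fibroblast growth factors (FGFs) and insulin-like growth factor 1 through receptor tyrosine kinases, and interleukin 6 through the gp130 subunit and Stat3. miR-22 is a microRNA, which lowers the output of mRNAs that pair with its seed, bases 2 to 8 of the mature strand.

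The mature strands removed in KO mice are shown in full because their seeds define the lost regulator, with the seed in capitals. The sequences are those of RefSeq on GRCm38.p6, where both lie on the plus strand of chromosome 11, the 5p strand at chr11:75463734-75463755 and the 3p strand at chr11:75463772-75463793.
mmu-miR-22-3p: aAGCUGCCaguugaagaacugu
mmu-miR-22-5p: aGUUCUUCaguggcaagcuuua
The array had no probe for a mature strand, so the loss of miR-22 itself could not be read from these data. The probe of the host transcript *Mir22hg* read 1.20, 1.69 and 1.22 in WT mice and 2.02, 2.11 and 2.23 in KO mice. Its position relative to the deleted part is not known, so this probe does not check the deletion.

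Values are scaled log2 signals, the log2 of the background-subtracted spot intensity over the 75th percentile of its array, so that 0 marks a spot as bright as that percentile. Levels of different probes are not comparable with each other, because each probe binds with its own strength. A spot was called well above background by the scanner software. Spots that the software marked as non-uniform or as outliers were left out of the means and tests of single genes. Their values are given below as marked. They are kept in the means and sums of cell type markers, in the search for genes that followed *Bmp4* and in a setting with marked spots kept. The share of spots well above background lay between 62.3 and 66.5% in WT mice and between 55.8 and 65.9% in KO mice, and marked spots made up 17.1% of the array of WT 3 and 15.1% of that of KO 1, against at most 6.12% of the others.

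Of the 20 probes, 11 were well above background on all 6 arrays and 3 on none. Of their 120 spots, 9 were marked. Tests were limited to probes that rose well over background on 3 or more arrays and kept 2 or more unmarked values per group, which left 14 probes and 9 of the 10 genes, all but *Bmp8b*. The brightest such probe stood for each gene. Differences were fitted with limma over 14711 genes and, in a second fit, over 31238 probes. At an unadjusted p under 0.05, the threshold of the study's methods, 1 of the 9 genes was higher in KO mice and 0 were lower, against 10% higher and 8.82% lower among all genes tested. After Benjamini-Hochberg adjustment over all genes, limma called 0 of the 9, where 0.143% of all genes were called higher and 0.0408% lower. The median difference, KO minus WT, was 0.11 over the 9 genes and -0.03 over all genes, and 4 of the 9 were below 0.

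**Figure D1:**
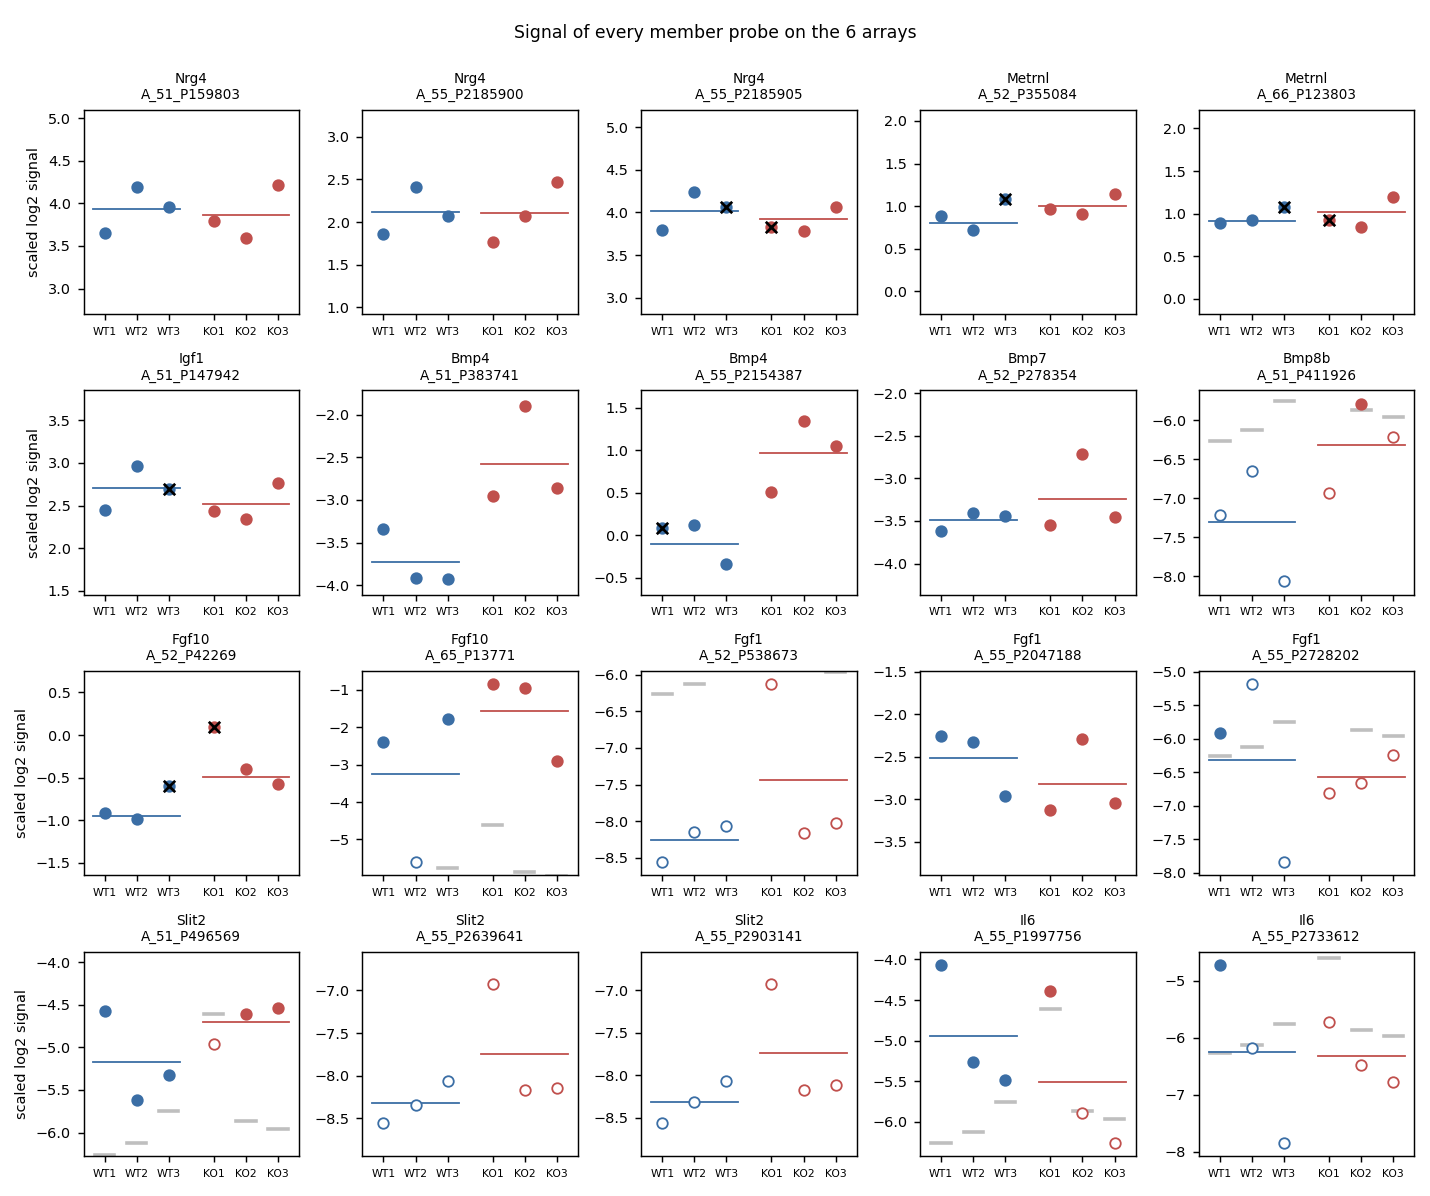
Scaled log2 signal (vertical axes) of each of the 20 probes of the 10 secreted factors in the 3 WT and 3 KO mice, with marked spots crossed, spots not well above background drawn open, the mean of the unmarked spots of each group as a coloured line and the lowest signal well above background on each array as a grey bar. In *Bmp4* the KO mice lie above the WT mice on both probes, while the groups overlap on every probe of *Nrg4*, *Metrnl* and *Igf1* once the marked spots are counted.

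The BMPs differed among themselves. *Bmp4*, a BMP that drives commitment of mesenchymal cells to the adipocyte lineage, was the member that was higher in KO mice. Its brightest probe read 0.08 in WT 1, a marked spot, then 0.13 and -0.33 in WT 2 and WT 3, and 0.51, 1.34 and 1.05 in KO 1, KO 2 and KO 3. Every KO value was above every WT value, marked or not. The WT mean was -0.10 ± 0.32 (SD, n = 2) and the KO mean 0.97 ± 0.42 (SD, n = 3). *Bmp4* rose by 1.07 on the log2 scale in KO mice (SE 0.29, 95% interval 0.35 to 1.79), which is 2.10-fold, with an unadjusted limma p of 0.0110. Adjusted over all genes, its limma p was 0.153.

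The second probe of *Bmp4*, A_51_P383741, had no marked spot and a lower signal. It read -3.34, -3.92 and -3.93 in WT mice and -2.96, -1.90 and -2.86 in KO mice. Again the groups did not overlap, which held in the same direction for 13.9% of all tested probes without a marked spot. The difference was 1.16 (SE 0.32, 95% interval 0.40 to 1.91), with an unadjusted p of 0.00837 and an adjusted p of 0.158 in the limma fit over probes. The 2 probes of *Bmp4* were the 2 of 14 that were higher at an unadjusted p under 0.05, and 0 of 14 were lower, against 9.70% and 6.74% of all probes tested. Both match the same transcript and the same 6 RNA samples, so they are not independent measurements of the mice. Within the slide row that held WT 3 and the 3 KO mice, the difference of the brightest probe was 1.30. It is given without a p, since WT 3 was the only WT mouse there. The methods' t-test gave that probe an unadjusted p of 0.0587, on the other side of the threshold.

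*Bmp7*, a BMP known to promote brown adipocyte differentiation, read -3.61, -3.40 and -3.44 in WT mice and -3.54, -2.72 and -3.45 in KO mice. KO 2 was higher than the other 5 mice, and the other KO mice lay within the WT range. The difference was 0.25 (SE 0.24, 95% interval -0.31 to 0.81) with an adjusted limma p of 0.588, and it was -0.01 without KO 2. *Bmp8b*, a BMP that brown fat raises when thermogenesis is activated, had 1 probe, which was well above background in KO 2 only. It read -7.21, -6.65 and -8.07 in WT mice and -6.94, -5.79 and -6.21 in KO mice. No fold change or test was taken, since 5 of the 6 values were not well above background.

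**Figure D2:**
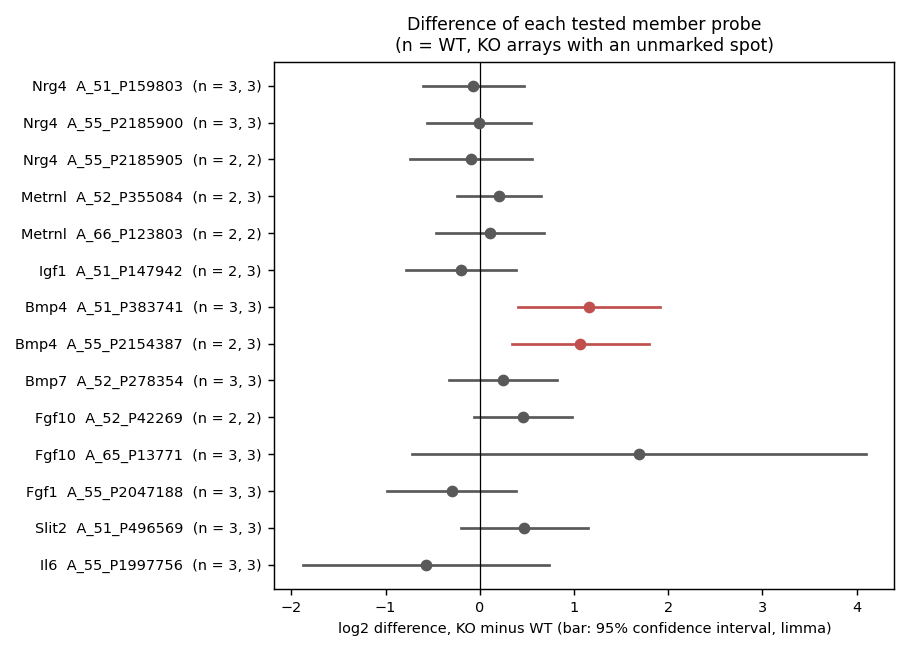
Difference in scaled log2 signal, KO minus WT, for the 14 tested probes of the secreted factors, with the 95% interval of the limma fit over probes as bars and the zero line marked. The intervals of the 2 *Bmp4* probes lie above 0, at 0.34 to 1.80 and 0.40 to 1.91, and those of the other probes include 0.

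*Nrg4*, the neuregulin that brown fat secretes to act on the liver and on sympathetic nerves, had 3 probes, all well above background on all arrays. Its brightest probe read 3.80, 4.24 and 4.06 in WT mice, the last a marked spot, and 3.83, also marked, 3.78 and 4.07 in KO mice. The groups overlapped across nearly their whole range. The difference was -0.09 (SE 0.24, 95% interval -0.71 to 0.53) with an adjusted limma p of 0.848. The probe A_51_P159803 read 3.65, 4.20 and 3.96 against 3.79, 3.59 and 4.21, a difference of -0.07 (SE 0.23). The third, A_55_P2185900, read 1.86, 2.41 and 2.06 against 1.77, 2.06 and 2.47, a difference of -0.01 (SE 0.24). On all 3 probes the intervals covered both directions, and the sign turned under quantile normalization. *Metrnl*, a secreted protein linked to browning of fat, had intervals that covered 0 on both of its probes. The brightest read 0.89, 0.93 and 1.08, the last marked, in WT mice and 0.93, marked, 0.85 and 1.20 in KO mice, a difference of 0.11 (SE 0.21, 95% interval -0.42 to 0.64, limma adjusted p = 0.792). The other, A_52_P355084, read 0.88, 0.72 and a marked 1.09 against 0.96, 0.90 and 1.15, a difference of 0.20 (SE 0.18, 95% interval -0.24 to 0.65). On this probe the unmarked values did not overlap, and the marked WT 3 value lay among those of the KO mice.

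*Fgf10*, an FGF made by mesenchymal cells that acts on preadipocytes, lay close to the threshold. Its brightest probe read -0.91, -0.99 and -0.60 in WT mice and 0.09, -0.40 and -0.57 in KO mice, where the values of WT 3 and KO 1 were marked spots. All KO values were above all WT values, the nearest pair being -0.57 and the marked -0.60. From the unmarked spots the WT mean was -0.95 ± 0.05 (SD, n = 2) and the KO mean -0.49 ± 0.12 (SD, n = 2). The difference was 0.46 (SE 0.18, 95% interval -0.01 to 0.93), with an unadjusted limma p of 0.0526 and an adjusted p of 0.270. With the marked spots kept it was 0.54 with an unadjusted limma p of 0.0383, and quantile normalization, normexp, SAM and 3 further settings also placed it under 0.05.

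The second *Fgf10* probe, A_65_P13771, was far more variable. It read -2.40, -5.60 and -1.77 in WT mice and -0.86, -0.95 and -2.90 in KO mice, and the value of WT 2 was not well above background. KO 1 and KO 2 were above the WT mice and KO 3 was not. The difference of 1.69 had an SE of 1.02 and a 95% interval of -0.72 to 4.10 (limma adjusted p = 0.446). It was 0.52 without WT 2, 2.43 without WT 3, with an unadjusted limma p of 0.0495, and 0.20 against WT 3 alone.

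*Fgf1*, an FGF that fat makes in response to feeding, read -2.26, -2.33 and -2.97 in WT mice and -3.12, -2.29 and -3.04 in KO mice on its brightest probe. Both groups held values near -2.3 and near -3, a difference of -0.30 (SE 0.29, 95% interval -0.99 to 0.38, limma adjusted p = 0.593). Of the other *Fgf1* probes, A_52_P538673 was above background on no array and A_55_P2728202 in WT 1 only.

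*Igf1*, the growth factor that liver and fat make under growth hormone, read 2.45, 2.97 and a marked 2.69 in WT mice and 2.44, 2.34 and 2.76 in KO mice. The difference was -0.20 (SE 0.23, 95% interval -0.76 to 0.37, limma adjusted p = 0.662). *Il6*, a cytokine that fat, muscle and immune cells release, was dim. It read -4.07, -5.26 and -5.48 in WT mice and -4.39, -5.89 and -6.26 in KO mice, and the last 2 values were not well above background. WT 1 and KO 1 were the highest of their groups. The difference was -0.58 (SE 0.56, 95% interval -1.90 to 0.75, limma adjusted p = 0.599), and it depended on single mice, at -1.14 without KO 1 (an unadjusted limma p of 0.0346), -0.14 without WT 1 and -0.20 without KO 3. The second *Il6* probe was above background in WT 1 only.

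*Slit2*, a guidance protein of which brown fat releases a fragment, read -4.57, -5.62 and -5.33 in WT mice and -4.96, -4.61 and -4.54 in KO mice, where the value of KO 1 was not well above background. WT 1 was as high as the KO mice and the other WT mice were lower. The difference was 0.47 (SE 0.28, 95% interval -0.20 to 1.14, limma adjusted p = 0.401), and it was 0.77 without WT 1 (an unadjusted limma p of 0.0101), 0.25 without WT 2, 0.23 under quantile normalization and 0.10 with normexp. The other *Slit2* probes, A_55_P2903141 and A_55_P2639641, were above background on no array.

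**Figure D3:**
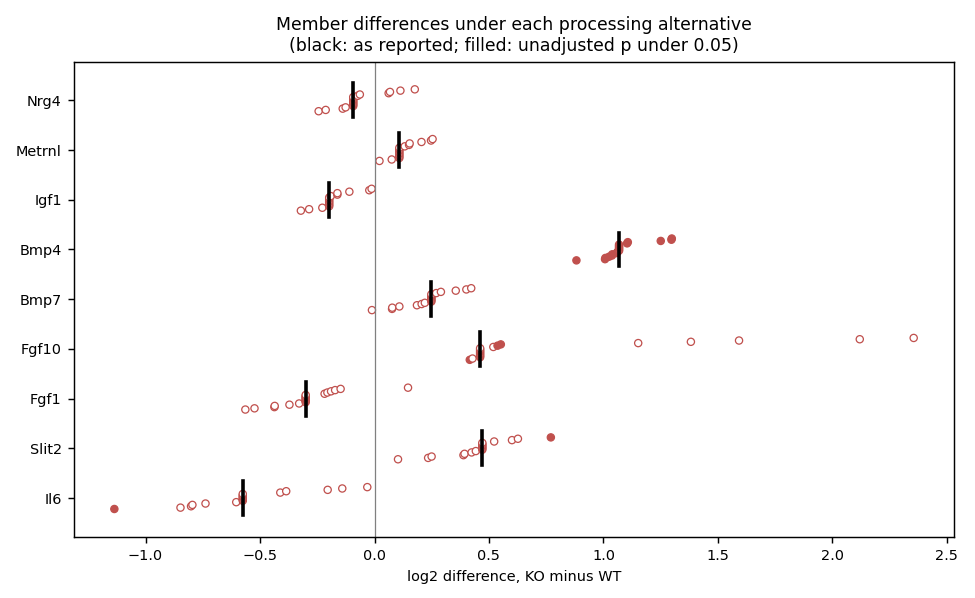
Difference in scaled log2 signal, KO minus WT, of the 9 tested genes as reported and under each of the 19 other settings of the processing in which the gene could be tested (16 to 19 per gene), with the settings in which the unadjusted p was under 0.05 drawn apart. *Bmp4* stays between 0.88 and 1.30, while *Nrg4* runs from -0.24 to 0.18 around the zero line.

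The receptors, inhibitors and mediators on which these factors act were taken as a list of 87 genes, of which 69 were tested. Of these, 5 were lower and 7 were higher in KO mice at an unadjusted p under 0.05, shares of 7.25% and 10.1% that stand beside 8.82% and 10% of all genes, and limma called 0 after adjustment. Their median difference was 0.04, and 32 of the 69 were below 0. With slide row as a block, which compares the KO mice with WT 3 alone, 0 were lower and 3 higher. Of the 18 that were not tested, 11 were dim and 7 had too many marked spots.

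Among the genes of BMP signaling, the receptor *Bmpr1a*, which binds Bmp4 and Bmp7 directly, fell. It read 1.40, 1.43 and 1.22 in WT mice and 0.83, 1.08 and 0.76 in KO mice, without overlap, as did 14.7% of all genes without a marked spot in the lower and 14.2% in the higher direction. The difference was -0.46 (SE 0.15, limma adjusted p = 0.182), and as the mean of its probes it was -0.26, which did not pass. *Bambi*, a decoy receptor that lacks the kinase, rose. It read -1.59, -1.54 and -1.44 in WT mice and -1.0, -1.08 and -1.04 in KO mice, a difference of 0.48 (SE 0.12, limma adjusted p = 0.128). Both groups of *Bambi* were tight and stood apart from each other.

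Of the secreted BMP antagonists, *Fstl3* rose by 0.57 (SE 0.21) and *Sostdc1* fell by 0.46 on the log2 scale (SE 0.18), calls lost in 7 and 10 of the 19 other settings, and the other 7 of the 9 tested did not pass. The type I receptor *Acvr1* differed by -0.03 (SE 0.13). *Bmpr2*, the type II receptor, was not tested because its only probe was marked on 3 WT and 2 KO arrays. Of 9 tested Smad genes and *Id* targets, 0 passed the unadjusted threshold in limma. *Id1*, a direct BMP target, differed by 0.13 (SE 0.21) and *Smad1*, a BMP mediator, by -0.13 (SE 0.15).

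Among FGF genes, 1 of 12 tested was lower and 3 were higher at an unadjusted p under 0.05, shares of 8.33% and 25% beside 8.82% and 10% of all genes. *Dusp6*, a phosphatase that ERK signaling induces and that acts back on ERK, fell by 0.88 on the log2 scale (SE 0.24, limma adjusted p = 0.139). It read 3.22, 3.84 and 3.41 in WT mice and 2.65, 2.24 and 2.94 in KO mice, without overlap. *Fgfr2*, the gene of the receptor that Fgf10 uses in its IIIb form, rose by 0.68 (SE 0.20, limma adjusted p = 0.157), from -4.54, -4.91 and -4.45 in WT mice to -3.65, -4.18 and -4.04 in KO mice. The difference of *Fgfr2* was 0.21 with normexp, and its call was lost there, under quantile normalization, in the authors' values and with slide row as a block. Which splice form its probe reads was not determined.

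*Klb*, the coreceptor for endocrine FGFs, was 0.58 higher (SE 0.22, limma adjusted p = 0.246), a call lost in 9 of the 19 other settings. *Spry2*, an inhibitor of receptor tyrosine kinase signaling, was 0.93 higher (SE 0.27, limma adjusted p = 0.153), but its probe was well above background on 3 of 6 arrays and the difference was -0.15 after normexp background correction. *Fgfr1* differed by -0.05 (SE 0.21).

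In the IGF list, *Irs2*, an adaptor of the insulin and IGF1 receptors, fell by 0.63 on the log2 scale (SE 0.16, limma adjusted p = 0.128). It read 2.01, 1.98 and 1.93 in WT mice and 1.62, 1.12 and 1.28 in KO mice, without overlap. Of the proteins that carry IGFs in the circulation, *Igfbp2* was 0.90 higher (SE 0.30) and *Igfals* 0.82 higher (SE 0.30), calls lost in 6 and 8 of the 19 other settings, and *Igfbp2* was 0.34 higher with normexp. The groups overlapped in *Igfals*. Of the other binding proteins tested, *Igfbp3* (0.46, SE 0.21), *Igfbp4* (-0.25, SE 0.30), *Igfbp5* (-0.042, SE 0.23) and *Igfbp6* (-0.34, SE 0.18) did not pass, and the receptor *Igf1r* differed by 0.04 (SE 0.14). For interleukin 6, *Stat3* fell by 0.40 on the log2 scale (SE 0.17) with an adjusted limma p of 0.263 and lost its call in 14 of the 19 other settings, while the receptor genes *Il6ra* (0.41, SE 0.21) and *Il6st* (0.23, SE 0.15) did not pass. The neuregulin receptors *Erbb3* and *Erbb4* were above background on no array. Of the Slit receptors, *Robo1* differed by 0.12 (SE 0.28) and *Robo4* by -0.18 (SE 0.16).

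**Figure D4:**
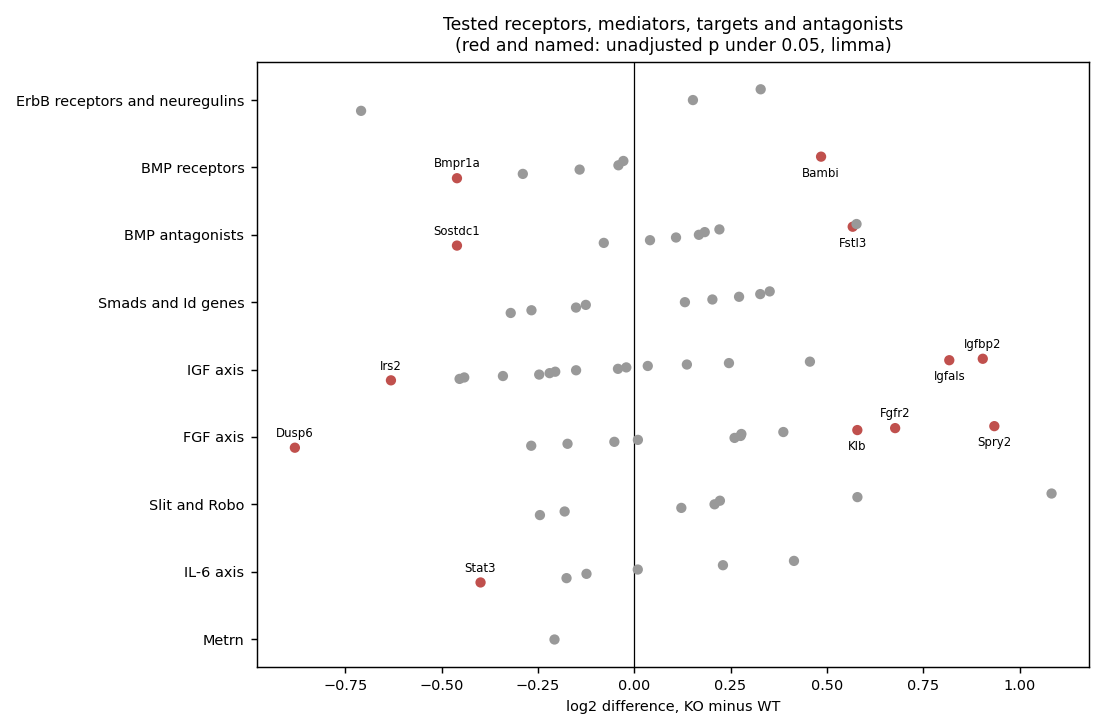
Difference in scaled log2 signal, KO minus WT, of the tested receptors, inhibitors and mediators, grouped by signaling family, with those at an unadjusted p under 0.05 named. The 5 lower and 7 higher genes are spread over the BMP, FGF, IGF and interleukin 6 families.

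In bulk tissue, fewer cells of a type and less RNA per cell cannot be told apart, so the levels of marker genes are given beside these results. All 10 brown adipocyte markers were well above background on all arrays, and *Ucp1* read 5.51, 5.85 and 5.53 in WT mice and 5.10, 5.0 and 5.65 in KO mice, all 6 of them marked spots, so that it was not tested. With marked spots kept, the mean of the 10 ran from 2.73 to 3.03 in WT mice and from 2.32 to 2.88 in KO mice. Of the 5 that were tested, 1 was lower in KO mice at an unadjusted limma p under 0.05 and 0 were higher. These shares of 20% and 0% stand beside 8.82% and 10% of all genes, and the median difference of the 5 was -0.0049. That median leaves out the markers that were not tested, *Ucp1* among them. With marked spots kept, *Ucp1*, *Cidea*, *Dio2*, *Ppargc1a*, *Cox7a1* and *Cox8b* were lower in KO 1 and KO 2 than in every WT mouse. In KO 3 this held for *Dio2* and *Ppargc1a* only. *Elovl3*, *Prdm16*, *Zic1* and *Ebf2* did not keep that order. Markers of fibroblasts and preadipocytes, the mesenchymal cells in which *Bmp4* and *Fgf10* are also expressed, had means of 2.14 to 2.27 and of 1.98 to 2.29. The means of 3 lists beside the mast cell list did not overlap between the groups. White adipocyte markers ran from -3.09 to -2.99 in WT and from -2.89 to -2.05 in KO mice, and lymphocyte markers from -5.56 to -5.20 and from -5.16 to -4.78. Smooth muscle and pericyte markers ran from 2.404 to 2.472 and from 2.247 to 2.398, lower in KO mice. The part of these cells in the differences above was not tested.

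The 5 mast cell markers stood further apart. Their mean ran from -2.08 to -1.68 in WT mice and from -0.79 to -0.52 in KO mice, and their summed level, in units of the 75th percentile, from 1.71 to 2.02 and from 3.33 to 3.81. Of the 5, 4 were higher at an unadjusted p under 0.05 and 1 after adjustment in limma, where 10% and 0.143% of all genes were called higher. The gene lists were chosen with earlier results of these data known, so these counts are a description only. The defining gene *Cpa3* read -1.77, -3.06 and -1.95 in WT mice and -0.59, -0.50 and -1.0 in KO mice. These markers moved in the same direction as *Bmp4*, and their part in its difference was not tested.

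The 15 skeletal muscle markers varied from mouse to mouse, with means of 2.82, 2.06 and -4.21 in WT mice and 0.32, 3.71 and 1.95 in KO mice. WT 3, the mouse with the lowest muscle mean, also had the lowest value of the brightest *Bmp4* probe, and KO 2, with the highest muscle mean, had the highest. The mice between did not keep this order. WT 1, WT 2, KO 3 and KO 1 had muscle means of 2.82, 2.06, 1.95 and 0.32. Their *Bmp4* values were 0.08 (marked), 0.13, 1.05 and 0.51. The part of muscle in the *Bmp4* difference was not tested. Without KO 2 the difference of the brightest probe was 0.88 and that of A_51_P383741 was 0.82. Without WT 3 the brightest probe had too few unmarked values to be tested, and A_51_P383741 gave 1.06. Of the markers of other cell types, *Hoxc10* of white fat, *Ms4a1* of B cells and *Dbh* of sympathetic nerve were above background on no array. Other genes of the same lists were detected. Well above background on all 6 arrays were 5 of 6 white adipocyte markers, 3 of 7 lymphocyte markers and 5 of 6 nerve and Schwann cell markers, the last including *Th*.

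**Figure D5:**
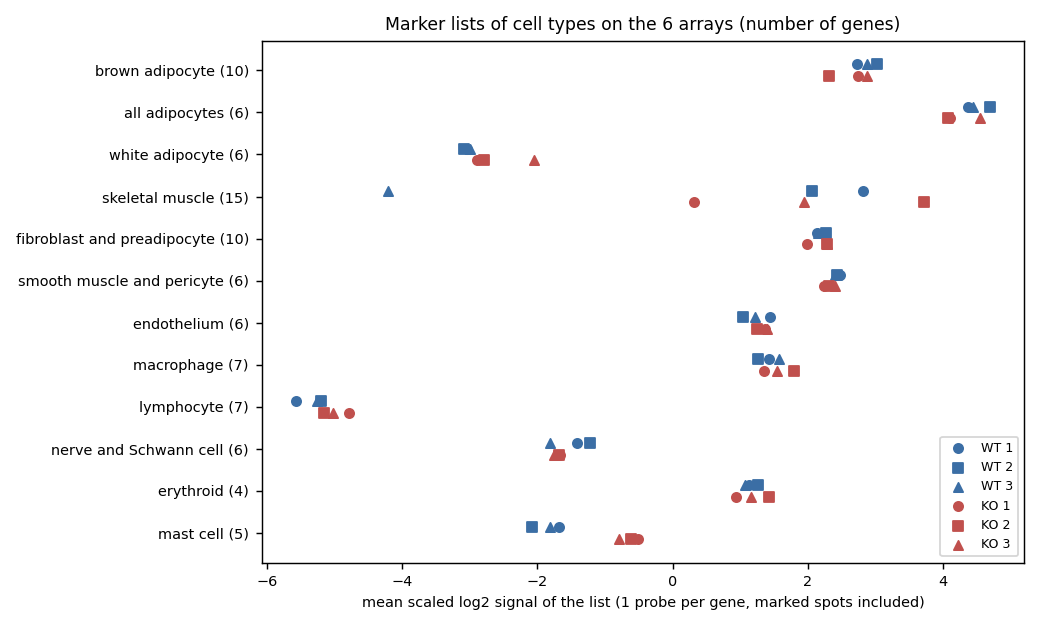
Mean scaled log2 signal of each list of cell type markers in the 3 WT and 3 KO mice, 1 point per mouse. Mast cell markers are higher in every KO mouse than in every WT mouse, and skeletal muscle markers run from -4.21 to 3.71 between single mice.

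The genes whose levels followed *Bmp4* most closely over the 6 mice were *Bglap*, *Cyth4* and *Uckl1os*, with a Pearson's r of 0.996, 0.994 and 0.991 among 11576 genes. This is a description only, since all points share the 6 arrays and the 2 groups, and the marked WT 1 value of *Bmp4* entered it.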

How the data were processed

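RNA from BAT of 3 WT mice and 3 KO mice was hybridized to Agilent arrays, 1 mouse per array. The authors deposited scanner intensity values from Feature Extraction 11.5.1.1, per the file headers (the submitters' notes name 10.7), background-subtracted but not scaled between arrays, and a table of processed log2 values whose processing is not given in the sources used here. All arrays were of 1 slide and 1 scan.

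Each signal was set relative to its array's 75th percentile over non-control spots, on the log2 scale. Marked spots were left out. Probes were named through RefSeq accessions (33767 of 56605, 59.7%) and spots of a probe were averaged. The fit used limma 3.58.1 (lmFit, eBayes) in R 4.3.3, two-sided and unpaired, with Benjamini-Hochberg adjustment over all features. The 3 arrays per group limit the precision, and p-values measure the spread between these mice only. The methods name SAM, which was run as an alternative. The steps were tested on simulated data. All 10 factors, the main receptors, and the listed partners and other secreted factors at an unadjusted p under 0.05 are named. The members and gene lists were chosen with earlier results of these data known. Alternatives were 3 scalings or sources of values, normexp with an offset of 50, other filters and tests, slide row as a block, the mean of a gene's probes and leaving out each array. Leaving out WT 3 and KO 1 together was chosen after seeing the data.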

Additional observations from a re-analysis of the deposited data

How the results depend on the processing

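After adjustment over all genes, 0 factors were called in each of the 19 other settings, in which 5 to 10 of the factors could be tested (5 with slide row as a block, 10 with no filter on dim probes). *Bmp4* was higher in all of them, between 0.88 and 1.30 on the log2 scale. It was read from its second probe without WT 2, without WT 3 and without both WT 3 and KO 1. Slide row as a block aside, its adjusted p lay between 0.0813 (eBayes with trend and robust) and 0.334 (limma with no filter on dim probes). Among those settings, the methods' t-test alone took its unadjusted p over 0.05. The count of factors higher at an unadjusted p under 0.05 went from 1 to 2, by adding *Fgf10*, under quantile normalization, normexp, the filter of all 6 arrays, marked spots kept, eBayes with trend and robust, and SAM. With the methods' t-test the count stayed at 1, but the gene called was *Fgf10* (unadjusted t-test p of 0.0378) in place of *Bmp4*. Leaving out each array in turn gave 1 to 2 higher, where *Slit2* was added without WT 1, and 0 to 1 lower, where *Il6* was added without KO 1. Of the probes, 4 were higher with SAM, 1 without both WT 3 and KO 1, and 1 to 3 with each array left out (1 without WT 2), and 0 to 1 were lower (1 without KO 1). Where *Fgf10* lost too many unmarked values of its brightest probe, its second probe stood for it, and with each array left out the difference ran from 0.46 to 2.35. That of *Il6* was -0.032 with slide row as a block.

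Of the partners, 5 lower and 7 higher as reported, 3 were lower with no filter on dim probes, with SAM and with the mean of a gene's probes, and 2 to 5 with each array left out (2 without WT 1, 3 without WT 2, KO 1 or KO 3). With normexp 3 were higher, with the methods' t-test 3, and with each array left out 3 to 9 (4 without WT 3, 3 without KO 2, 9 without KO 1). With slide row as a block, 0 were lower and 3 higher. Row 1 held WT mice only, so that fit equals the KO mice against WT 3 alone, the only comparison within a row. No cause of these changes was tested.

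Some small differences changed sign. That of *Nrg4* became 0.11 under quantile normalization and 0.18 in the authors' processed values, and ran from -0.24 to 0.068 with each array left out (0.062 without WT 2, 0.068 without KO 2), and its probe A_51_P159803 gave 0.16, 0.18 and the same range. Its probe A_55_P2185900 became 0.11 under quantile normalization, 0.12 in the authors' values, 0.036 with the row block and 0.13 without both WT 3 and KO 1, and ran from -0.20 to 0.15 with each array left out. *Bmp7* ran from -0.011 (without KO 2) to 0.40 (without KO 1) with each array left out, while *Fgf1* became 0.15 with the row block and *Spry2* -0.15 with normexp. The authors' processed table held 10 of the 20 probes. Over all genes, 1297 were lower and 1476 higher as reported, 1321 and 893 with normexp and 1495 and 1127 in the authors' values. No paired analysis was possible because the mice carry no numbers shared between the groups.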

Other observations

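Beside the 10 factors, 22 other secreted proteins of fat were listed, of which 17 were tested, and 2 were lower and 3 higher in KO mice at an unadjusted p under 0.05, shares of 11.8% and 17.6% beside 8.82% and 10% of all genes, with 0 called by limma after adjustment. *Bmp3*, a BMP that antagonizes the signal of other BMPs, was 1.14 higher on the log2 scale (SE 0.22, limma adjusted p = 0.0817), from -3.69, -3.57 and -4.0 in WT mice to -2.93, -2.22 and -2.71 in KO mice. *Apln*, the ligand of the apelin receptor on blood vessels, was 1.04 higher (SE 0.26), from -1.55, -2.21 and -1.93 to -0.41, -0.91 and -1.25. *Lcn2*, a protein that binds iron carriers of bacteria, was 0.57 higher (SE 0.15).

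*Cxcl14*, a chemokine that brown fat releases on activation, fell by 0.52 on the log2 scale (SE 0.13), from -0.08, 0.01 and -0.10 in WT mice to -0.55, -0.65 and -0.52 in KO mice. *S100b*, a protein of brown fat and Schwann cells that supports sympathetic nerve growth, fell by 0.50 (SE 0.14), from 3.76, 4.0 and 3.86 to 3.33, 3.32 and 3.47. Of the nerve and Schwann cell markers, 4 of 5 tested were below 0, with a median difference of -0.30, while their mean overlapped between the groups, from -1.82 to -1.23 in WT and from -1.75 to -1.66 in KO mice. The 1 called lower was *Mbp*, which read 1.81, 1.58 and 1.45 in WT and 1.01, 0.93 and 0.91 in KO mice. Their part in the difference of *S100b* was not tested. The values of the KO and WT mice did not overlap in any of the 5 called secreted factors. These 5 were named for their p, so the lack of overlap is no separate evidence. Of the listed factors that were not called, *Gdf10*, *Pltp* and *Bmp2* were also lower without overlap. Among all genes without a marked spot, 14.2% did not overlap in the higher and 14.7% in the lower direction.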
